A study of Mus musculus with 6 samples.

Results

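This account covers 32 genes of the endoplasmic reticulum (ER): molecular chaperones, protein disulfide isomerases and the sensors that detect unfolded proteins. The genes were chosen by name, with the strain differences of these same arrays in view, and each was read from a probe set whose only annotated gene symbol was that gene, the brightest one on average where several existed. Of the 32, 30 were measured, out of 22180 genes tested in all. The probe sets of Pdia4 and Erp29 also carried the symbol of another gene and were not read. The differences below are therefore descriptions and give no independent support. Liver RNA came from 3 male Balb/c and 3 male Balb/cBy mice, 20 weeks old, one array per sample. Both groups were kept in individual cages and were fed for 12 weeks, from an age of 8 weeks, on a feed in which fat supplied 58% of the energy. Balb/cBy is a substrain of Balb/c and is known to carry a deletion in Acads, the gene of mitochondrial short-chain acyl-CoA dehydrogenase. The labels name only the strain, give neither genotype nor supplier, and call the arrays biological replicates. Mice on other diets were not part of the comparison.

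Livers of Balb/cBy mice had higher levels of most of these genes than livers of Balb/c mice. Of the 30 measured members, 28 had a difference above 0, against 49.1% of all genes, and the median log2 difference was 0.26, against a median of 0.00 over all genes. The largest differences lay in the chaperone BiP system: Creld2 by 1.22 on the log2 scale, Sdf2l1 by 0.85, Hyou1 by 0.78, Manf by 0.65 and Hspa5 by 0.58. The 3 arrays of each strain did not overlap for 12 members, each with Balb/cBy higher, while 4.32% of all genes separated in that direction and 3.51% in the other, which 0 members did. No member passed an adjusted p of 0.05 in limma over all genes, and 0 of 22180 genes did, which is a background of 0%. The smallest adjusted p among the members was 0.166, for Creld2. At an unadjusted p under 0.05, 11 members were higher (2.59% of all genes) and 0 were lower (1.16% of all genes). The smallest p that an exact permutation test allows with 3 arrays per strain is 0.1, and each of the 12 separated members gave that value.

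Proteins that enter the secretory pathway fold in the ER, and the liver secretes most plasma proteins. BiP, encoded by Hspa5, binds unfolded chains, while disulfide isomerases pair their cysteines and the lectin chaperones hold their sugar chains. When unfolded proteins accumulate, the sensors IRE1 (Ern1), PERK (Eif2ak3) and ATF6 (Atf6) start the unfolded protein response. IRE1 splices the RNA of the transcription factor XBP1, PERK slows translation, and ATF6 is cut in the Golgi to release a transcription factor. ATF6 and XBP1 then switch on chaperone genes through short promoter elements. A value per gene cannot show the splicing of Xbp1, the phosphorylation of the sensors or the cleavage of ATF6. In bulk liver, fewer cells of a type and less RNA per cell cannot be told apart.

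The ER stress response element (ERSE) is the best known of these promoter elements. It pairs a CCAAT box, read by the factor NF-Y, with the box CCACG, read by ATF6 or XBP1. Promoters of 250 bases before to 50 bases after the annotated start were taken from RefSeq (build GRCm38.p6) for 27 of the 32 genes, with 34 promoter entries. Atf6, Hyou1, Sil1, Manf and Erp29 had no entry. On both strands, the exact letters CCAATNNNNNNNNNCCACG were found in promoters of 7 of the 27 genes (25.9%), namely Calr, Canx, Creld2, Dnajc3, Hsp90b1, Hspa5 and Pdia6. The same letters were in 39 of all 32851 promoters, or 0.119%, and in 37 of all 27025 genes with a promoter. Hsp90b1 held the element in 2 places. The 8 matches lay between -212 and -47 bases from the start, 5 on the strand of the gene and 3 on the other. A match is a description of the letters and not a test of binding. Because the element is known from chaperone genes, its share among these members gives no independent support. The 250 bases before the start are shown for Creld2, the member with the largest strain difference, and for Hspa5, the gene of BiP, with the ERSE in capitals. In Creld2 the element runs on the opposite strand, so the CCACG box is read there as CGTGG.

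Creld2, chr15:88819396-88819645, plus strand: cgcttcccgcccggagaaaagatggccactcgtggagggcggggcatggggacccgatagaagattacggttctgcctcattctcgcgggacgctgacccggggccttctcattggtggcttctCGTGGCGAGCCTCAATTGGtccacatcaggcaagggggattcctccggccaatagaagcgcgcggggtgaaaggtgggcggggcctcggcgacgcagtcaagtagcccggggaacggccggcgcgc
Hspa5, chr2:34771840-34772089, plus strand: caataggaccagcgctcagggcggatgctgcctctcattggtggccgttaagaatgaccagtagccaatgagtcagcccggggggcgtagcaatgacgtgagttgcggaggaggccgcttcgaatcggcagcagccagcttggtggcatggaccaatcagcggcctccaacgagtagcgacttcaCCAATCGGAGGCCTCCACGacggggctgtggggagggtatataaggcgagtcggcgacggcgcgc

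The elements of the other genes are shown with 8 flanking bases on each side, in the direction of the gene and with the element in capitals, so that the letters of each match can be compared.

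Hsp90b1, distal match, chr10:86705630-86705664, minus strand: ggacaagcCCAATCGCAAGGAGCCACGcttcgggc
Hsp90b1, proximal match, chr10:86705525-86705559, minus strand: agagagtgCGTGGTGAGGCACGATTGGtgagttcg
Calr, chr8:84847067-84847101, minus strand: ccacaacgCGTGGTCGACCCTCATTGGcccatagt
Canx, chr11:50325792-50325826, minus strand: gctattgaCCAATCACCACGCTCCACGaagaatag
Dnajc3, chr14:118937819-118937853, plus strand: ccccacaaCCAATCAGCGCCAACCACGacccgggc
Pdia6, chr12:17266483-17266517, plus strand: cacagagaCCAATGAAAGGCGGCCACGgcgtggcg

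The related element ERSE-II, ATTGGNCCACG, was found in 1 member, Dnajb11, within the first transcribed bases. It was in 0.0365% of all promoters and in 12 of 27025 genes. The element UPRE, TGACGTGG, read by XBP1, was found in Txndc5 and Txndc11, in 0.676% of all promoters and in 193 of 27025 genes. On its other strand UPRE contains the CCACG box of the other elements. The UPRE letters of these disulfide isomerases are shown in capitals.

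Txndc5, chr13:38528037-38528060, minus strand: ctcgccgcTGACGTGGcgctagcc
Txndc11, chr16:11134619-11134642, minus strand: agtgtggcTGACGTGGagagtccg

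**Figure D1:**
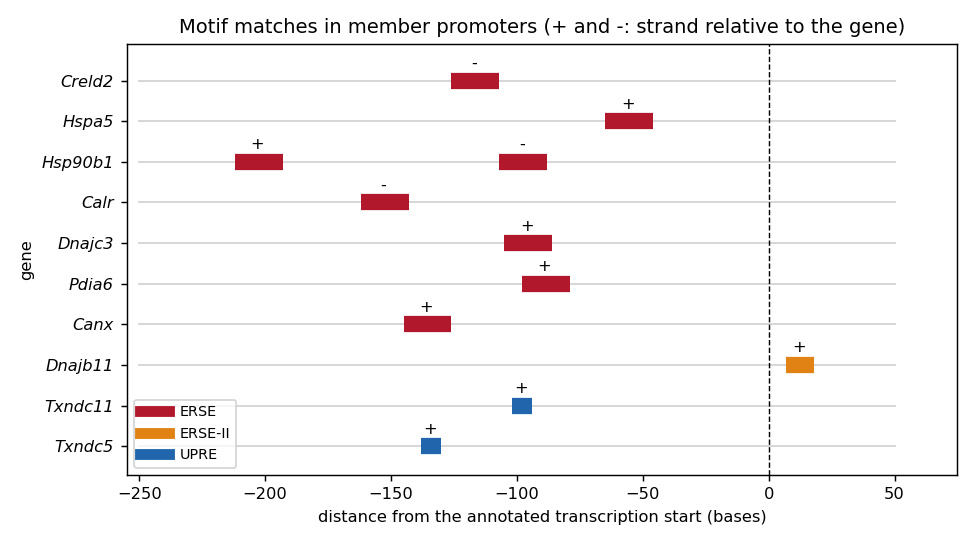
Position of each ERSE (red), ERSE-II (orange) and UPRE (blue) match in the promoters of 10 members, in bases from the annotated start, with the strand relative to the gene written above. The 8 ERSE matches lie between -212 and -47.

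The median difference of the sensors was 0.27, against 0.43 for the BiP system, a contrast that was not tested. Hsp90b1, Sil1, Dnajc3 and Dnajc10 of the BiP system lay below the sensor median. All 6 members of the sensor class had a difference above 0, and 4 of the 6 separated without overlap. Of all genes, 4.32% separated with Balb/cBy higher. Ern1, the sensor that splices Xbp1, stood at 10.03, 10.13 and 10.20 in Balb/c replicates 1, 2 and 3 and at 10.27, 10.61 and 10.25 in Balb/cBy. Its difference was 0.26 (SE 0.12, adjusted p = 0.999 in limma). The strains were separated by only 0.06 between their nearest arrays. Eif2ak3, the kinase PERK, stood at 8.62, 8.71 and 8.66 in Balb/c and at 8.73, 9.10 and 8.90 in Balb/cBy, a difference of 0.25 (SE 0.11). Its nearest arrays lay 0.02 apart, and Balb/cBy replicate 2 was the highest for both kinases. Xbp1, the transcription factor made active by IRE1, had the largest difference of the class at 0.37 (SE 0.13), with 11.44, 11.20 and 11.54 in Balb/c and 11.74, 11.94 and 11.59 in Balb/cBy. Wfs1, an ER membrane protein that restrains ATF6, stood at 9.32, 9.38 and 9.19 in Balb/c and at 9.47, 9.82 and 9.63 in Balb/cBy, a difference of 0.34 (SE 0.12).

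The ATF6 pair overlapped between strains. Atf6 stood at 9.98, 9.61 and 10.31 in Balb/c and at 10.04, 10.44 and 10.29 in Balb/cBy, a difference of 0.29 with a 95% interval from -0.13 to 0.71. Atf6b, its less active relative, stood at 9.13, 9.25 and 8.98 in Balb/c and at 9.18, 9.31 and 9.24 in Balb/cBy, a difference of 0.13 (interval from -0.11 to 0.36). Balb/cBy replicate 2 was the highest of the 6 arrays for each of the 6 genes of the class, and was the highest for 21.7% of all genes. Without it the class median was 0.17, Ern1 was at 0.14 and Eif2ak3 at 0.15. Atf6 was at 0.11 without Balb/c replicate 2 and Atf6b at 0.06 without Balb/c replicate 3. The adjusted p of each of the 6 was 0.999 in limma.

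The BiP system held the members with the largest differences. All 11 of its genes had a difference above 0, with a median of 0.43. Of the 11, 6 separated without overlap, against 4.32% of all genes with Balb/cBy higher. Creld2, a small ER protein with thioredoxin-like motifs that is strongly induced by ER stress, stood at 10.52, 10.53 and 10.64 in Balb/c and at 12.10, 11.69 and 11.55 in Balb/cBy. The nearest arrays of the strains lay 0.91 apart, more than the range within either strain, and the fold was 2.33 (log2 SE 0.15). Sdf2l1, a partner of the BiP cochaperone ERdj3, stood at 10.22, 10.32 and 9.73 in Balb/c and at 11.39, 10.51 and 10.93 in Balb/cBy. Its spread within Balb/cBy, a range of 0.88, was as wide as its difference of 0.85 (SE 0.23), so its separation rests on a gap of 0.20. Hyou1, a large ATP-binding chaperone that releases nucleotide from BiP, stood at 10.03, 10.16 and 10.28 in Balb/c and at 11.08, 10.84 and 10.88 in Balb/cBy. It differed 1.71-fold, or 0.78 (SE 0.11, adjusted p = 0.183 in limma), with a gap of 0.56 and a range of at most 0.25 within a strain.

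Manf, a small ER protein that binds BiP and is secreted under stress, had the tightest groups of the system. It stood at 8.50, 8.47 and 8.56 in Balb/c and at 9.04, 9.22 and 9.22 in Balb/cBy, a 1.56-fold difference (log2 SE 0.09, adjusted p = 0.186 in limma). BiP itself, Hspa5, stood at 9.77, 9.90 and 10.10 in Balb/c and at 10.58, 10.57 and 10.36 in Balb/cBy, a 1.49-fold difference (log2 SE 0.12, adjusted p = 0.639 in limma). Dnajb11, the J-domain protein ERdj3 that delivers clients to BiP, stood at 9.96, 9.77 and 10.01 in Balb/c and at 10.74, 10.15 and 10.12 in Balb/cBy. Its difference of 0.43 (SE 0.17) was 0.23 without Balb/cBy replicate 1, which stood 0.62 above the lowest array of its strain.

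The other 5 genes of the system overlapped between strains. Dnajb9, the J-domain protein ERdj4 that represses IRE1, differed by 0.33 (SE 0.20), but its value in Balb/c replicate 2 alone was low, at 9.76 against 10.47 to 10.64 in the other arrays. Without that array its difference was 0.08. Sil1, a nucleotide exchange factor of BiP, differed by 0.24 (SE 0.12) and Dnajc3, the cochaperone p58IPK, by 0.21 (SE 0.13), or 0.09 without Balb/cBy replicate 1. Dnajc10, the J-domain reductase ERdj5, had a difference of 0.01 with a 95% interval from -0.21 to 0.23, which excludes a difference of the size seen for Hspa5. Hsp90b1, the ER chaperone GRP94, differed by 0.27 (SE 0.29), and that value was -0.01 without Balb/cBy replicate 1. With array weights, the median of the system was 0.28.

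**Figure D2:**
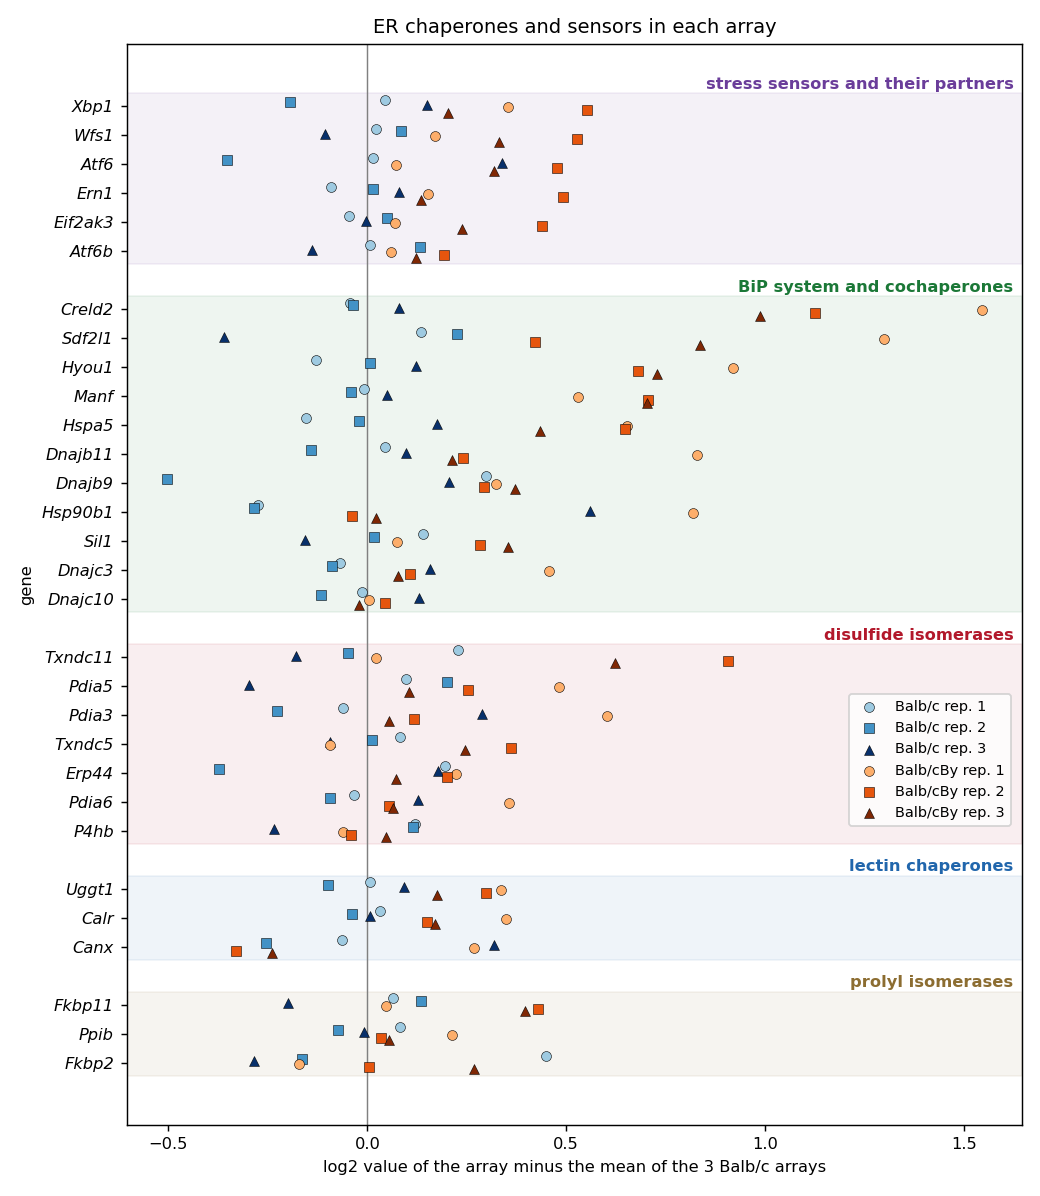
Each point is 1 array: its log2 value minus the mean of the 3 Balb/c arrays (x axis) for each measured member (y axis, by class), with Balb/c in blues and Balb/cBy in oranges. Creld2, Hyou1 and Manf show the widest gaps between strains, at 0.91, 0.56 and 0.48.

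No single disulfide isomerase separated by strain. Of the 7 measured, 6 had a difference above 0, with a median of 0.17, and 0 separated without overlap. Txndc11, an oxidoreductase anchored in the ER membrane, had the largest difference at 0.52 (95% interval from 0.02 to 1.01), yet Balb/cBy replicate 1, at 9.12, lay below Balb/c replicate 1, at 9.32. Without Balb/cBy replicate 2 its difference was 0.32. Pdia5 differed by 0.28 (interval from -0.08 to 0.63), or 0.13 without Balb/c replicate 3. Pdia3, the isomerase ERp57 that works with the lectin chaperones, differed by 0.26 (interval from -0.16 to 0.67), or 0.09 without Balb/cBy replicate 1. Pdia6, which acts on IRE1 and PERK as well as on folding clients, differed by 0.16 (interval from -0.11 to 0.43), or 0.06 without Balb/cBy replicate 1.

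Txndc5, an isomerase with several thioredoxin domains, differed by 0.17 (95% interval from -0.13 to 0.47), or 0.08 without Balb/cBy replicate 2. Erp44, which retrieves unassembled proteins from the early Golgi, differed by 0.16 (interval from -0.20 to 0.53), and by -0.02 without Balb/c replicate 2. P4hb, the founding protein disulfide isomerase, had a difference of -0.02 with an interval from -0.29 to 0.25, and its sign turned without Balb/c replicate 1 (0.04), Balb/c replicate 2 (0.04) or Balb/cBy replicate 1 (0.00). The interval of P4hb leaves out the differences seen for Creld2, Sdf2l1, Hyou1, Manf and Hspa5. These differences between genes were not tested as such.

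In the lectin chaperone class, 2 of 3 genes separated with Balb/cBy higher, as did 4.32% of all genes, and the class median was 0.22. Calr and Canx bind the sugar chains of glycoproteins, and Uggt1, placed in the same class, is an enzyme. Calr, the soluble calreticulin, stood at 12.69, 12.62 and 12.67 in Balb/c and at 13.01, 12.81 and 12.83 in Balb/cBy, a difference of 0.22 (SE 0.09). Uggt1, the enzyme that tags incompletely folded glycoproteins for another round of binding, stood at 10.19, 10.08 and 10.27 in Balb/c and at 10.51, 10.48 and 10.35 in Balb/cBy, a difference of 0.27 (SE 0.10). Both were small shifts above narrow within-strain ranges. Canx, the membrane-bound calnexin, had a difference of -0.10 with a 95% interval from -0.55 to 0.35, and its sign turned when Balb/c replicate 3 (0.06) or Balb/cBy replicate 2 (0.01) was left out.

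The 3 prolyl isomerases, which turn proline bonds during folding, did not separate. Fkbp11 differed by 0.29 (95% interval from -0.03 to 0.61), Ppib, the ER cyclophilin B, by 0.10 (interval from -0.12 to 0.32) and Fkbp2 by 0.03 (interval from -0.43 to 0.49). The class median of 0.10 became 0.06 when Balb/c replicate 2 was left out, and 0.26 when Balb/c replicate 1 was. Fkbp2 had its highest value in Balb/c replicate 1 and turned sign without Balb/c replicate 2 (-0.05), Balb/c replicate 3 (-0.11) or Balb/cBy replicate 3 (-0.08). Fkbp11 was at 0.19 without Balb/c replicate 3, and Ppib at 0.04 without Balb/cBy replicate 1.

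**Figure D3:**
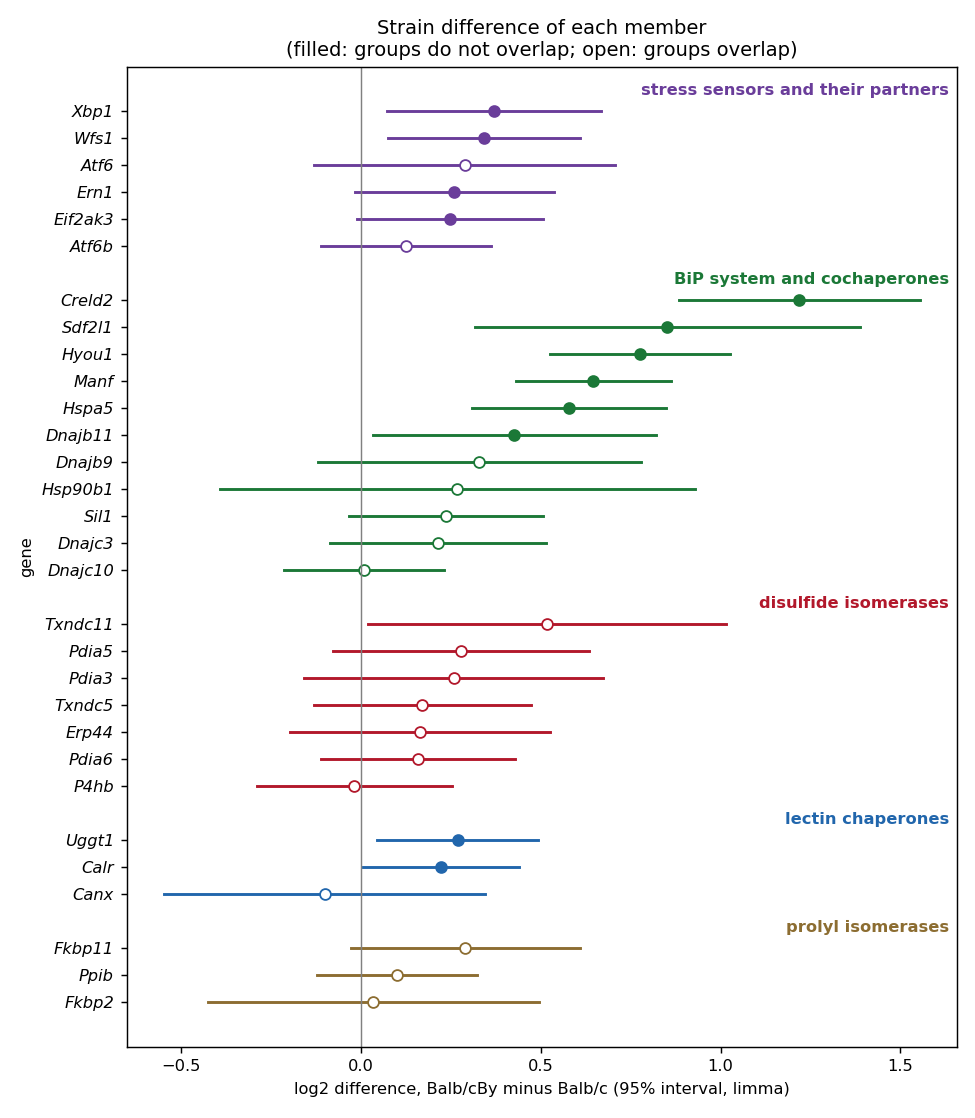
Log2 difference of each measured member between Balb/cBy and Balb/c with its 95% interval from limma, by class. Filled points mark the 12 members whose groups do not overlap, 6 of them in the BiP system and 0 among the disulfide isomerases.

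Of the 30 members, 7 had a strain difference larger than the range of the 3 arrays within either strain: Creld2, Hyou1, Manf, Hspa5, Xbp1, Uggt1 and Calr. For the others the animals of one strain differed among themselves as much as the strains did, and the classes did not follow one array order. The mean deviation of the BiP system from its own 6-array mean was 0.42 in Balb/cBy replicate 1, 0.16 in replicate 2 and 0.18 in replicate 3. The sensors instead had means of 0.01, 0.31 and 0.09 in those arrays. In Balb/c, the BiP system lay at -0.26, -0.34 and -0.16 and the sensors at -0.14, -0.18 and -0.08 in replicates 1, 2 and 3. Both classes therefore had a higher mean in every Balb/cBy array than in any Balb/c array. The disulfide isomerases also had their 3 highest means in Balb/cBy (0.11, 0.15 and 0.06, against -0.02, -0.17 and -0.14), while the lectin chaperones and prolyl isomerases overlapped.

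**Figure D4:**
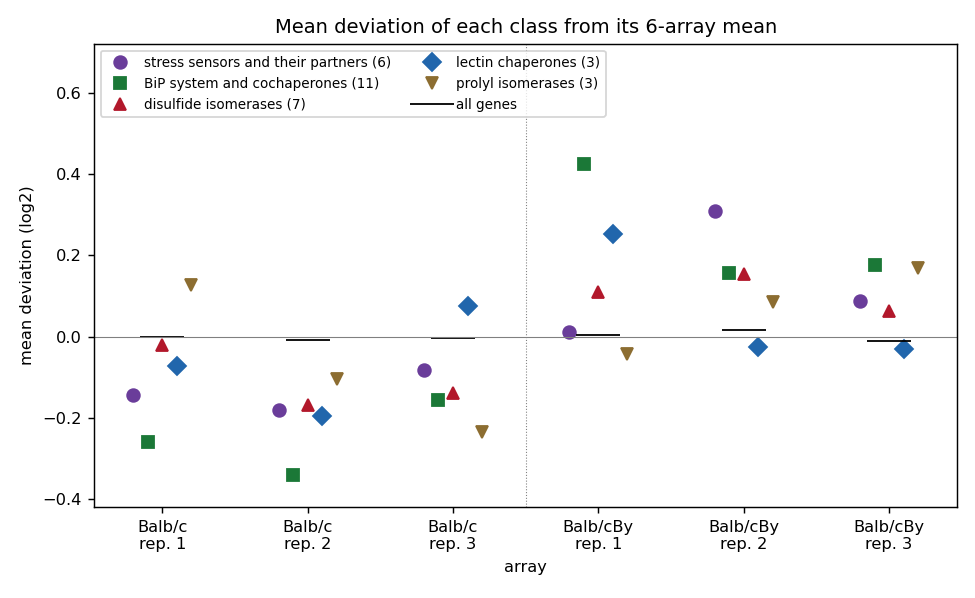
Mean deviation of each class from its own mean over the 6 arrays (y axis, log2) in each array (x axis), with the number of measured genes in brackets and the mean over all genes as a bar. The BiP system is highest in Balb/cBy replicate 1, at 0.42, and the sensors in Balb/cBy replicate 2, at 0.31.

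Members with an ERSE or ERSE-II in the promoter often shared their highest array within a strain, a pattern noticed in these data and not tested. All 8 such members had their highest Balb/cBy value in replicate 1, where 42.1% of all genes did. For Hspa5 the lead was narrow, with 10.578 in Balb/cBy replicate 1 and 10.572 in replicate 2. Of the 8, 7 had their highest Balb/c value in replicate 3, where 32.4% of all genes did, and the exception was Calr. Among the 18 measured members with a promoter entry and neither element, 6 were highest in Balb/cBy replicate 1 and 5 in Balb/c replicate 3. Of the 30 other measured genes with an element, 16 (53.3%) were highest in Balb/cBy replicate 1 and 13 (43.3%) in Balb/c replicate 3. Hsp90b1 had wide ranges within both strains, with 11.27, 11.26 and 12.10 in Balb/c and 12.36, 11.50 and 11.56 in Balb/cBy. Its highest array stood 0.85 above the lowest within Balb/c and 0.86 within Balb/cBy, both larger than its strain difference. Canx was highest in the same arrays, with 12.43, 12.23 and 12.81 in Balb/c and 12.76, 12.16 and 12.25 in Balb/cBy, although its strain difference was below 0. The median strain difference was 0.25 for the 8 members with an element and 0.26 for the 18 without, a contrast that was not tested. Leaving out Balb/cBy replicate 1 gave 0.13 for the 8 and 0.27 for the 18, and leaving out Balb/c replicate 3 gave 0.38 and 0.25.

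Promoters of 41 other genes held an ERSE or ERSE-II, and 30 of these genes were measured. Their median difference was 0.00, with 15 higher and 15 lower. That count includes genes at low levels, such as Esp16 and Xlr3b, whose Balb/c means were 4.10 and 4.79. The median therefore does not describe well expressed genes alone. Without any single array it lay between -0.04 and 0.03, and over the other processing settings between -0.01 and 0.10. Of the 30, 4 separated with Balb/cBy higher and 0 with Balb/cBy lower, against the 4.32% and 3.51% of all genes. The 4, named after their values were seen, were Syvn1, Alg12, Ero1b and Pan2. Alg12, a mannosyltransferase that builds the sugar chain of glycoproteins, is transcribed away from Creld2 on the opposite strand, and both promoters contain the same ERSE. Alg12 differed by 0.43 (SE 0.14) and Creld2 by 1.22. Ero1b, the oxidase that recharges disulfide isomerases, differed by 0.31 (SE 0.09), and Pan2, a deadenylase subunit, by 0.26 (SE 0.09).

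Other genes of the ER and its stress response were read from lists of their own, and 0 passed in limma over all genes in either direction. At an unadjusted p under 0.05, 5 genes of other ER folding were higher and 1 lower, and 3, 3, 3 and 1 were higher and 0 lower for degradation, translocation, the PERK arm and the control of ATF6 and IRE1, against 2.59% of all genes higher and 1.16% lower. Of 20 measured genes of ER-associated degradation, which exports misfolded proteins to the proteasome, 16 were higher and 4 lower, with a median of 0.14. Its 3 smallest p values belonged to the ubiquitin ligase Syvn1 (0.83, SE 0.11, adjusted p = 0.166 in limma), its partner Sel1l (0.46, SE 0.09) and the channel protein Derl1 (0.25, SE 0.11). With array weights, which come from the same arrays and add no separate support, the adjusted p of Syvn1 was 0.0325 in limma. Syvn1 stood at 9.11, 9.27 and 9.42 in Balb/c and at 10.05, 10.20 and 10.04 in Balb/cBy. Of 18 genes of translocation and signal peptide cleavage, 17 were higher and 1 lower, with a median of 0.21, led by p by Sec11a of the signal peptidase (0.42, SE 0.12), the receptor subunit Srprb (0.46, SE 0.15) and the translocon subunit Sec61g (0.27, SE 0.09). With a repeated quantile normalization this median was 0.07.

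Of 32 other genes of ER folding and glycan trimming, 21 were higher and 11 lower, with a median of 0.05. Ero1b had the smallest p, followed by Prkcsh, the beta subunit of glucosidase II (0.32, SE 0.10), and Hspa13, a small relative of BiP (0.39, SE 0.14). The PERK and ATF4 arm did not lean to one side, with 10 of 20 genes higher, 10 lower and a median of 0.00. In this arm 3 genes separated with Balb/cBy higher and 2 with Balb/cBy lower, against 4.32% and 3.51% of all genes. Within it, asparagine synthetase, Asns, differed by 0.39 (SE 0.12), the transcription factor Atf4 by 0.34 (SE 0.11) and the stress factor Ddit3, known as CHOP, by 0.46 (SE 0.17), or 0.26 without Balb/cBy replicate 2. The list for the cleavage and control of ATF6 and IRE1 also held the ER-bound factors Creb3, Creb3l1, Creb3l2 and Creb3l3. Of its 14 measured genes, 11 were higher and 3 lower, with a median of 0.02. Here the ER-bound factor Creb3l2 differed by 0.55 (SE 0.16), its liver relative Creb3l3 by -0.18 (SE 0.10) and Bloc1s1, a substrate of IRE1, by 0.14 (SE 0.10). Leaving out Balb/c replicate 3 gave -0.12 for Creb3l3 and 0.08 for Bloc1s1. Creb3l3 separated with Balb/cBy lower, and Bloc1s1 overlapped.

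**Figure D5:**
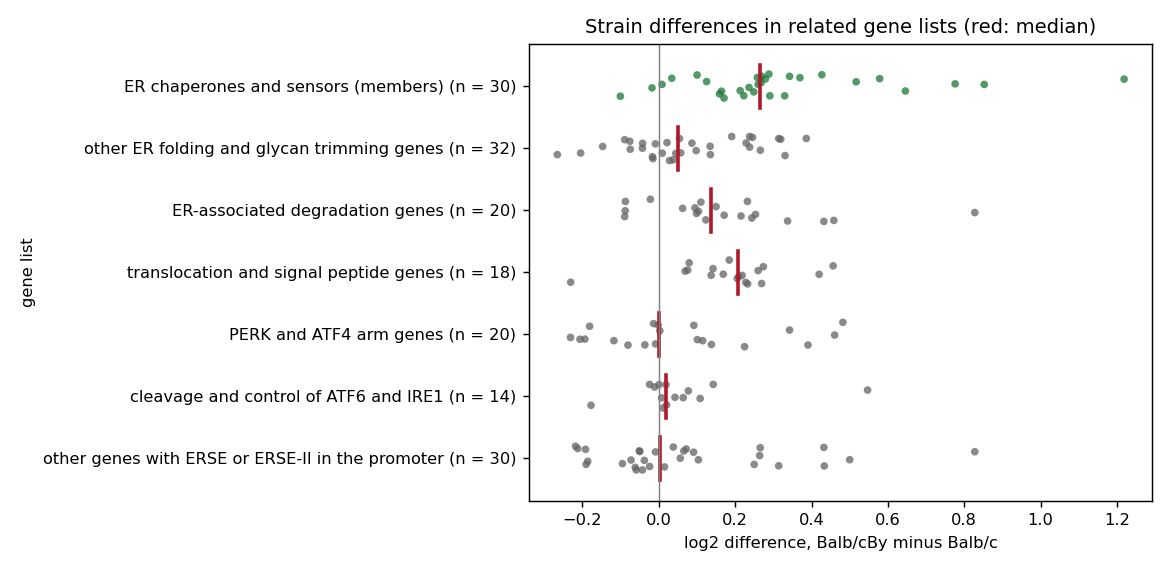
Log2 difference between Balb/cBy and Balb/c (x axis) of each measured gene (points) in the members and in related lists (y axis), with the median as a red line. The median is 0.26 for the members, 0.21 for translocation, 0.14 for ER-associated degradation and 0.00 for the PERK and ATF4 arm.

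Markers of other cells that make much ER protein were read on the same arrays, as levels summed on the linear scale. Hepatocyte markers summed to between 95221 and 102715 in Balb/c and between 98156 and 100417 in Balb/cBy, with 5 of 9 higher. Albumin, Alb, lay between 14.16 and 14.22 on all 6 arrays, while single genes of the list differed by between -0.04 and 0.55. The brightest genes make up most of such a sum, so it does not show that the hepatocyte share was equal. The plasma cell and B cell list summed to between 3152 and 3520 in Balb/c and between 4046 and 5641 in Balb/cBy. Only 4 of its 11 genes were higher: Ighm (by 1.59) and Jchain (by 1.12) separated upward, while Cd79a, Cd79b and Ms4a1 of B cells separated downward, and Mzb1, a plasma cell chaperone, differed by 0.06. These sums were lowest among Balb/cBy arrays in replicate 1, and their relation to the ER genes was not tested. Acinar pancreas markers summed to between 3291 and 5023 in Balb/c, highest in replicate 3, and between 2959 and 3338 in Balb/cBy, with 14 of 15 lower. Values this low have no detection call here, and none was at 0.

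Kupffer cell and macrophage markers summed to between 10250 and 17240 in Balb/c and between 13947 and 16792 in Balb/cBy (9 of 13 higher), with the lowest sum in Balb/c replicate 3. The ranges of the neutrophil (7 of 10 higher), cholangiocyte (1 of 5) and endothelial lists (5 of 8) overlapped between strains, as did that of stellate cells and fibroblasts (9 of 10). Within these lists, single genes separated with Balb/cBy higher: Lum (0.53, SE 0.12) and Dcn (0.48, SE 0.14) of fibroblasts and S100a8, Retnlg and Cxcr2 of neutrophils (between 0.13 and 0.40). Of the 13 Kupffer cell and macrophage genes, 2 also separated with Balb/cBy higher and 0 with Balb/cBy lower. Kdr of endothelium separated with Balb/cBy lower (-0.23). Over all genes, 4.32% separated with Balb/cBy higher and 3.51% with Balb/cBy lower. The part of any of these cells in the differences of the ER genes was not tested.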

How the data were processed

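Liver RNA of 6 mice (3 per strain) was hybridised to 1-colour Affymetrix arrays after labelling of 500 ng, per the labels' protocols. The authors ran RMA (background correction, normalization between arrays, probe summary), per the submitters' processing notes, and deposited 1 log2 value for each probe set and array. The sources used here do not name its version, the annotation or a build. For arrays, precision is limited by their number. Correlations between arrays lay between 0.972 and 0.988, array medians between 7.66 and 7.74, and no column was left unused (0).

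Gene symbols came from GEO's platform annotation, which can be old: of 41345 probe sets, 23521 had 1 symbol, 1814 several and 16010 none. Each gene was read from its single-symbol probe set with the highest mean, which gave 22180 genes. Balb/cBy minus Balb/c was fitted with lmFit and eBayes (limma 3.58.1, R 4.3.3), without covariates or a filter, and p values were adjusted by Benjamini-Hochberg over the whole table (threshold 0.05). Intervals are at 95%. Scripts were tested on simulated data. RMA sets the arrays to a like distribution, so differences are relative to the array as a whole.

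Members, classes, gene lists, marker lists and alternatives were chosen with earlier results of these data known. Every member is named. Values of every array are given for Ern1, Eif2ak3, Atf6, Atf6b, Xbp1 and for members whose groups do not overlap. The array values of Hsp90b1, Canx and Syvn1, and the names Alg12, Ero1b and Pan2, were added once values had been seen. Of each other pathway list, the 3 genes with the smallest p are named. The markers were of hepatocytes, plasma and B cells, acinar pancreas, Kupffer cells and macrophages, neutrophils, stellate cells, cholangiocytes and endothelium. No gene list was tested.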

Additional observations from a re-analysis of the deposited data

How the results depend on the processing

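Tried in turn were a replicate block, 2 rescalings, a filter on low levels, 2 treatments of probe sets, 2 variance models and leaving out each array. The median difference of the members stayed between 0.21 and 0.29 without any single array. It was 0.19 with a repeated quantile normalization, which left 10 of the 12 separated members. Over the settings that kept every array, between 4.22% and 5.84% of all genes separated with Balb/cBy higher. The replicate block called 0 genes and 0 members. The labels do not say that numbers pair the animals, and same-numbered arrays deviated against each other (r of -0.32, -0.20 and -0.23). Array weights gave 11 genes higher and 1 lower, 3 of them members (Creld2, adjusted p = 0.0271; Manf and Hyou1, adjusted p = 0.0325), and a median of 0.28 for the BiP system. The weights come from the same arrays and add no separate support. Leaving out 1 array called between 0 and 3 genes, of which 0 were members, and left between 13 and 17 members separated, where fewer arrays separate more easily (between 6.73% and 12.8% of all genes). Without both Balb/c replicate 3 and Balb/cBy replicate 1, chosen after the data were seen, 10 genes were called higher and 3 lower, 1 of them a member (Creld2, 1.10, adjusted p = 0.0429), and 21 members separated, as did 20.0% of all genes. The prolyl isomerase median lay between 0.040 and 0.26 with arrays left out. Fkbp2 turned to -0.030 with a repeated quantile normalization, -0.018 with array weights and -0.006 without both arrays, and Dnajc10 turned to -0.0057 with the quantile normalization. With 1 or both of these arrays, or any other single array, left out, Fkbp2 ranged from -0.11 to 0.26, Dnajc10 from -0.049 to 0.076, P4hb from -0.13 to 0.042, Erp44 from -0.022 to 0.26, Canx from -0.28 to 0.059 and Hsp90b1 from -0.0080 to 0.55. The cause of these shifts was not tested. The other 24 members kept their direction in every setting run.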
